A study of Mus musculus with 8 samples.

Results

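Mbp, Mog, Mag, Mobp, Cnp, Mal, Cldn11, Opalin and Ugt8a are 9 genes of the myelin sheath and of mature oligodendrocytes, the glial cells that make myelin in the brain. They were looked up by name in the deposited expression table, with earlier results of these data known, and all 9 were found among its 14353 genes. Translating ribosome affinity purification (TRAP) was used in the study to collect the mRNA carried by ribosomes of glutamatergic neurons of the mouse ventral pallidum (VP), alongside an INPUT fraction of the same tissue. All 8 libraries came from untreated mice homozygous for VGluT2-Cre and heterozygous for Rpl22, the RiboTag allele, in which Cre puts a hemagglutinin tag on a ribosomal protein. The Cre is made from the vGluT2 (Slc17a6) gene, so tagged ribosomes are those of cells that express it or once did. VP tissue was combined into 4 pools, each of which gave 1 TRAP and 1 INPUT library, and values are given in the order VP1.6, VP2.2, VP2.6, VP2.11. Pool VP1.6 held 3 male and 4 female mice of 9 to 12 weeks, VP2.2 and VP2.11 each held 4 male and 6 female mice, and VP2.6 held 4 male and 7 female mice, all 3 of these pools aged 10 to 16 weeks. INPUT is described by the labels as all neurons and glia, taken from the homogenate before the beads were added, although the study's methods also name an unbound fraction where they describe sequencing. Slc17a6, the vesicular glutamate transporter that marks the targeted neurons, stood at 143 ± 13.6 CPM (read counts scaled to a common library total) in TRAP and at 25.9 ± 10.3 CPM in INPUT (SD, n = 4 pools each) and thus followed the labels.

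An oligodendrocyte wraps its membrane around axons in many layers. Cytoplasm is squeezed out of most of the wrap to give compact myelin, which Mbp holds together, while Cnp keeps channels of cytoplasm open, Mag faces the axon, Mog lies on the outermost surface, and Cldn11 seals the layers with tight junctions. The sheath is rich in galactolipids, made by the enzyme that Ugt8a encodes, and in cholesterol. Myrf, Sox10 and Olig2 are transcription factors that switch these genes on. In the brain these mRNAs are known chiefly from oligodendrocytes.

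The start regions of the members are shown for the gene with the lowest share in TRAP (Opalin), for Mog, which also fell, and for Mag, which did not. RefSeq promoter sequences (GRCm38.p6) were found for 8 of the 9 members. Each line gives the 250 bases before the start site, 5′ to 3′ on the strand of the gene, with capitals for the motifs searched on both strands: CTGGCAC and CTGGTAC, the core bound by MYRF, ACAAAG and ACAATG, bound by SOX factors, and CAGCTG, an E-box bound by OLIG2. Opalin lies on the minus strand (chr19:41077114-41077363), as do Mog (chr17:37023399-37023648) and Mag (chr7:30914923-30915172).
Opalin: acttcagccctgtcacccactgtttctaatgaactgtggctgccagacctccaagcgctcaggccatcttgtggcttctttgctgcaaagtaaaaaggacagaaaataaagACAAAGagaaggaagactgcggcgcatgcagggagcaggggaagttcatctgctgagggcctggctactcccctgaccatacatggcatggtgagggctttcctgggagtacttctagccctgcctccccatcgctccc
Mog: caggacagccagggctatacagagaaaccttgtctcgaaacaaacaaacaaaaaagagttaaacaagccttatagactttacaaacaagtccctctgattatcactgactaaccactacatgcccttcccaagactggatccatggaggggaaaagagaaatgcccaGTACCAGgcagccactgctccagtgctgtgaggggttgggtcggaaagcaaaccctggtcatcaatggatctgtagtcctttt
Mag: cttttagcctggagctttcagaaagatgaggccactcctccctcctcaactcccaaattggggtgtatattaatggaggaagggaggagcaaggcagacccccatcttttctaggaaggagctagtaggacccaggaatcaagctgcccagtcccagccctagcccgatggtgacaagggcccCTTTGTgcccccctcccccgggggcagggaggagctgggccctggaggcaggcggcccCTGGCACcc
CTGGCAC was found before the start sites of Mag and Cnp and in 4.19% of all 32851 mouse windows of this length, and CTGGTAC before that of Mog and in 1.83%. ACAAAG was found for Mag, Mobp, Cnp and Opalin and in 16.5% of all windows. ACAATG, in 10.7% of windows, and CAGCTG, in 13.0%, were in none of the 8. A match shows the letters only.

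TRAP was compared with INPUT over all 14249 genes above 1 CPM in at least 3 libraries, with limma on the log2 CPM values and the pool as a block, and a gene was called at a Benjamini-Hochberg adjusted p under 0.05. Of the 9 members, all of them tested, 7 were lower in TRAP and none was higher, while 16.8% of all genes tested were called lower and 15.4% higher. The same 7 genes had every TRAP library below every INPUT library, which held for 24.4% of all genes tested (exact two-sided permutation test for each gene over unpaired libraries, p = 0.029, the smallest that 4 libraries against 4 allow). With the libraries paired by pool, the exact two-sided sign-flip test gave p = 0.12 for each of the 7, which is the smallest that 4 pools allow and does not reach 0.05. The median log2 fold change was -2.11 over the members and -0.05 over all genes tested. Because these are bulk fractions, fewer oligodendrocyte ribosomes in TRAP and less of these mRNAs on each ribosome cannot be told apart. Ugt8a and Mag were the members that did not pass the test.

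**Figure D1:**
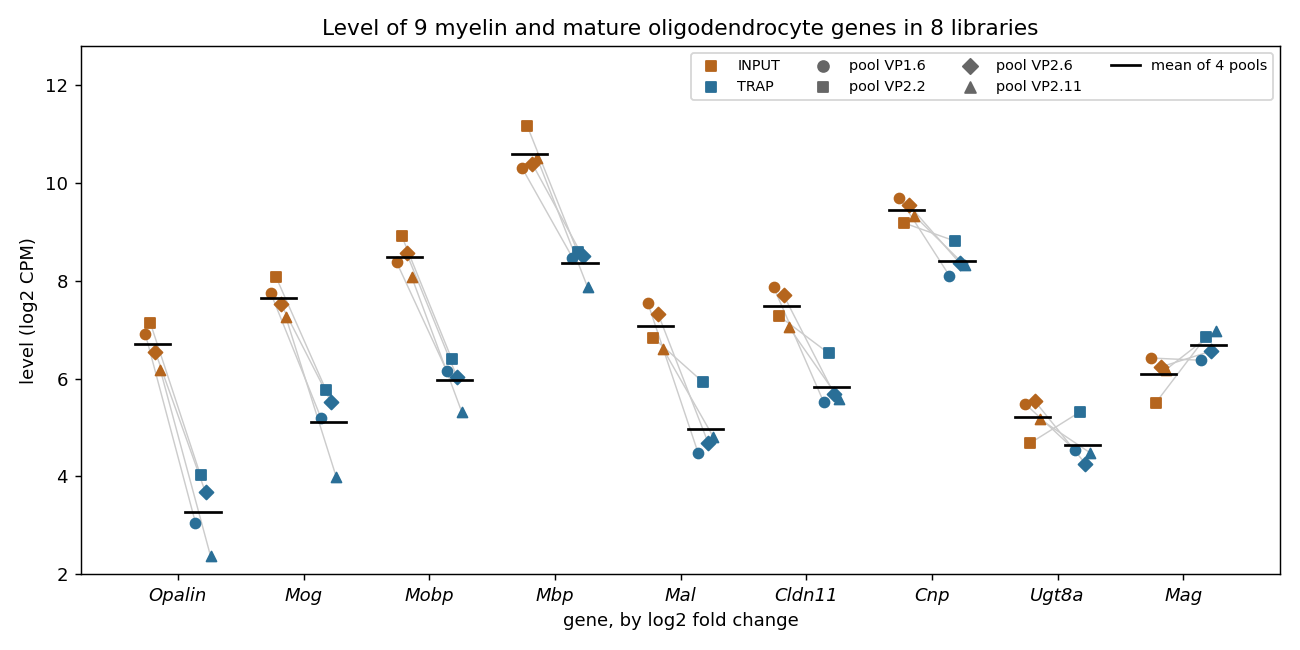
Level of each gene in log2 CPM (vertical axis) in every library, with INPUT in brown and TRAP in blue, a symbol for each pool, a grey line joining the libraries of 1 pool and a black bar for the mean of 4 pools. From Opalin to Cnp all TRAP points lie below all INPUT points, while those of Ugt8a and Mag overlap.

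Opalin, a membrane glycoprotein of mature oligodendrocytes, lost the largest share of its level among the 9 genes. It is encoded on chromosome 19 from 41061710 to 41077113 (GRCm38, GENCODE M21). In INPUT it stood at 121, 141, 93.5 and 72.5 CPM over the pools VP1.6, VP2.2, VP2.6, VP2.11, and in TRAP at 8.28, 16.2, 12.7 and 5.17 CPM in the same order. The lowest INPUT value was thus several times the highest TRAP value, and pool VP2.11 was lowest in both fractions. Opalin was 10.7-fold lower in TRAP (log2 fold change -3.42, standard error 0.25, limma adjusted p = 4.2e-07), and the drop was seen in 4 of 4 pools.

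Mbp, which binds the cytoplasmic faces of compact myelin together, had 1261, 2292, 1342 and 1448 CPM in INPUT over the pools in the same order. In TRAP its levels were 355, 386, 363 and 234 CPM. INPUT VP2.2 stood above the other INPUT libraries and TRAP VP2.11 below the other TRAP libraries, and the fractions did not overlap. Mbp, on chromosome 18, was 4.69-fold lower in TRAP (log2 fold change -2.23, standard error 0.24, limma adjusted p = 2.5e-05). INPUT values of VP1.6 and VP2.11 were deposited with 3 significant digits, which for a value as high as that of Mbp leaves 1 decimal on the log2 scale.

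Mobp, a small basic protein of the compact sheath, had 333, 485, 377 and 271 CPM in INPUT and 71.3, 84.1, 65.7 and 39.7 CPM in TRAP. Both fractions were highest in VP2.2 and lowest in VP2.11, and they did not overlap. The gene (chromosome 9, 120149707 to 120181484) was 5.70-fold lower in TRAP (log2 fold change -2.51, standard error 0.21, limma adjusted p = 1.7e-06). Its differences between the fractions varied least among the members, with an SD of 0.22 on the log2 scale over 4 pools.

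Mog, an immunoglobulin-like protein of the outer myelin surface, had 214, 271, 184 and 152 CPM in INPUT and 36.4, 54.1, 45.7 and 15.9 CPM in TRAP. TRAP VP2.11 was far below the other TRAP libraries, and the drop in that pool was the largest of the 4. On chromosome 17 from 37010743 to 37023398, the gene was 5.81-fold lower in TRAP (log2 fold change -2.54, standard error 0.24, limma adjusted p = 5.7e-06).

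Mal, a proteolipid that carries sheath components to the membrane, and Cldn11, the tight junction claudin of myelin, shared a pattern in which pool VP2.2 lost least. Mal had 186, 115, 161 and 97.7 CPM in INPUT and 22.3, 60.7, 25.7 and 28.1 CPM in TRAP, where VP2.2 was above all others. Cldn11 had 234, 156, 209 and 133 CPM in INPUT and 45.6, 91.5, 51.8 and 48.2 CPM in TRAP, with VP2.2 again the highest TRAP library. Both genes had fractions that did not overlap. Mal (chromosome 2, 127633226 to 127656695) was 4.30-fold lower in TRAP, with a log2 fold change of -2.11 ± 0.30 (standard error) and a limma adjusted p of 0.0002. For Cldn11 (chromosome 3, 31149920 to 31164324) the fall was 3.14-fold, with a log2 fold change of -1.65 ± 0.26 (standard error) and a limma adjusted p of 0.00037.

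Cnp, the phosphodiesterase of the uncompacted cytoplasmic channels, had the smallest fall of the 7 genes called. INPUT held 832, 580, 745 and 644 CPM and TRAP 274, 450, 330 and 320 CPM. VP2.2 was the lowest INPUT library and the highest TRAP library, and even so the fractions did not overlap. Cnp was 2.05-fold lower (log2 fold change -1.04, standard error 0.25, limma adjusted p = 0.0054), and without pool VP1.6 it missed the threshold (log2 fold change -0.85, limma adjusted p = 0.058). The gene (chromosome 11, 100574904 to 100591729) shares 154 exon bases, 4.23% of its exon length, with Dnajc7 on the opposite strand. Dnajc7, a chaperone partner, stood at 314 CPM in TRAP and 222 CPM in INPUT, and since the sources used here do not state whether reads were counted by strand, reads of the overlap may be shared between these genes.

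Ugt8a, the enzyme that adds galactose to ceramide, had 44.9, 25.6, 46.4 and 36.0 CPM in INPUT. In TRAP it had 23.2, 40.0, 19.2 and 22.3 CPM. TRAP was lower in 3 of 4 pools, but in VP2.2 TRAP was above its INPUT, and the fractions overlapped. For this gene (chromosome 3, 125865271 to 125938619) the log2 fold change was -0.57 (standard error 0.29, limma adjusted p = 0.15; exact permutation p = 0.11). Without VP2.2 the log2 fold change was -0.97 and the gene passed the test (limma adjusted p = 0.0079), as it did when libraries were weighted by quality (-0.90, limma adjusted p = 0.0038), a fit that called 22.4% of all genes lower. It did not pass without VP1.6 (-0.44, limma adjusted p = 0.40), VP2.6 (-0.33, 0.53) or VP2.11 (-0.53, 0.28). Nor did it pass with all pools and no block (limma adjusted p = 0.089).

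Mag, the glycoprotein by which the innermost wrap adheres to the axon, went the other way. Its INPUT levels were 85.6, 45.3, 75.4 and 72.5 CPM and its TRAP levels 83.0, 115, 94.3 and 126 CPM. TRAP was about equal to INPUT in VP1.6 and higher in the other 3 pools, and only the VP1.6 pair made the fractions overlap. The gene (chromosome 7, 30899176 to 30914873) shares no exon base with another annotated gene. Its log2 fold change was 0.61 (standard error 0.25), with a limma adjusted p of 0.072 with the pool as a block and of 0.035 without the block, where 23.2% of all genes were called higher and 24.8% lower, and the exact permutation p was 0.057. Without pool VP2.2 the log2 fold change was 0.36 (limma adjusted p = 0.21).

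**Figure D2:**
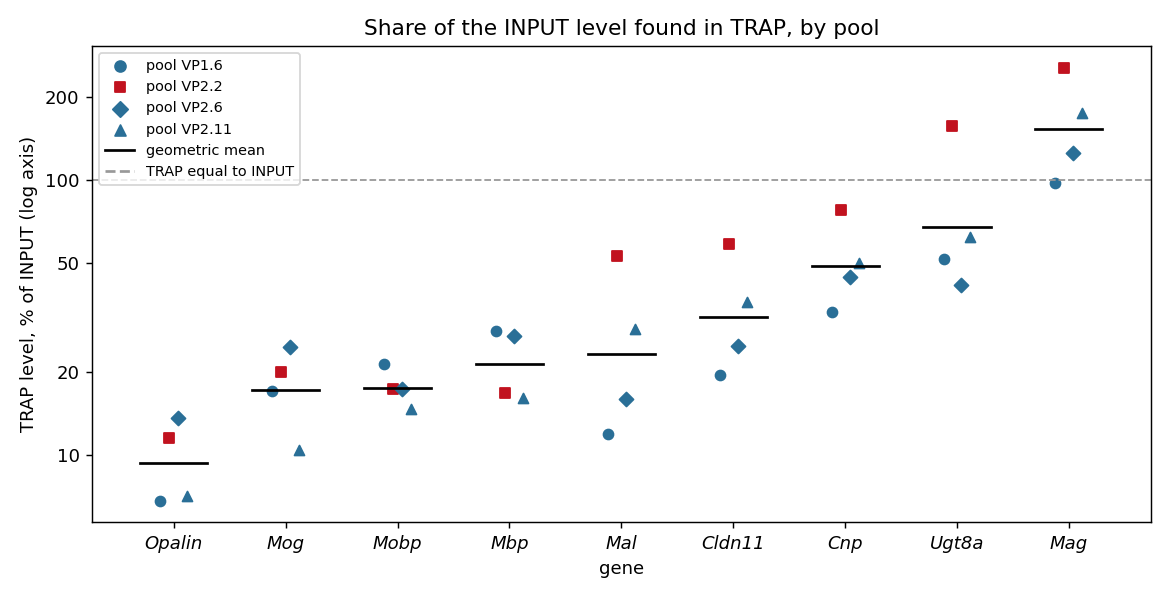
Level in TRAP as a percentage of the INPUT level of the same pool (vertical log axis) for each gene, with a symbol for each pool, VP2.2 in red, and a bar for the geometric mean of 4 pools. Shares run from 9.35% for Opalin to 152% for Mag, and VP2.2 is the highest point for Mal, Cldn11, Cnp, Ugt8a and Mag.

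The share of the INPUT level found in TRAP, as a geometric mean over 4 pools, was 9.35% for Opalin, 17.2% for Mog, 17.5% for Mobp, 21.3% for Mbp, 23.2% for Mal, 31.8% for Cldn11, 48.7% for Cnp, 67.5% for Ugt8a and 152% for Mag. Neighbours in this order had overlapping ranges over the pools in each case. The ends of the order were fixed in every pool, with Opalin lowest (6.84% to 13.6%) and Mag highest (96.9% to 255%) in 4 of 4 pools. All 9 genes stayed measurable in TRAP, with more than 1 CPM in every TRAP library.

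To see which members departed from the common drop, the difference of each gene in a pool was set against the median difference of the other 8. Mag lay above that median by 2.64 ± 0.41 on the log2 scale (SD, n = 4 pools), Ugt8a by 1.47 ± 0.63 and Cnp by 1.00 ± 0.28, each in 4 of 4 pools. Opalin lay below it, at -1.81 ± 0.61, and so did Mog (-0.92 ± 0.75) and Mobp (-0.88 ± 0.68), also in 4 of 4 pools. For these 6 genes the exact sign-flip test gave the smallest p that 4 pools allow, 0.125, so the design cannot take a departure past 0.05. Mbp, Mal and Cldn11 lay above the others in 2 pools and below them in 2.

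Levels were compared between genes per kilobase of exon, with all annotated exons of a gene merged (8469 bases for Mbp and 6849 for Mobp). Which transcripts of a gene were present was not examined, and a merged length can exceed theirs. The order between genes and the length trend below therefore depend on the annotation. In INPUT the order of the means was Cnp (192 CPM per kb), Mbp (187), Mog (120), Cldn11 (97.9), Mobp (53.5), Mal (50.3), Opalin (36.3), Mag (17.1) and Ugt8a (8.43). Cnp and Mbp were not separated beyond their spread: Mbp was above Cnp in INPUT VP2.2 (271 against 159 CPM per kb) and below it in the other 3 libraries, and without VP1.6 the mean of Mbp was the higher (200.0 against 180.3). The ranges over the 4 INPUT libraries also overlapped between the other neighbours in this order, except that Cldn11 lay above Mobp, Opalin above Mag and Mag above Ugt8a in all libraries. In TRAP, Cnp (94.4 CPM per kb) lay above every library of Mbp (39.5), which was followed by Cldn11 (31.7), Mag (25.7), Mog (22.3), Mal (12.3), Mobp (9.52), Ugt8a (5.77) and Opalin (3.60). All neighbours after Cnp had overlapping ranges there, and Mag was above Mog in only 1 of 4 libraries. With a trend on length removed in each pool, the members' log2 fold changes ran from -3.29 for Opalin to 0.56 for Mag and the same number, 7, was called lower, against 18.0% of all genes. Mbp moved to -2.65, Mobp to -2.83, Mog to -2.09 and Cldn11 to -1.26, so that Mbp then lay below Mog.

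Summed over the 9 genes, INPUT held 3311, 4111, 3233 and 2927 CPM from VP1.6 to VP2.11, and TRAP 919, 1299, 1008 and 839 CPM. The sum in TRAP was 29.8% ± 1.87 of that in INPUT (SD, n = 4 pools), with 27.8% in VP1.6 and 31.6% in VP2.2 as the lowest and highest. In CPM, which are not corrected for exon length, Mbp made the largest part of the sum in every INPUT library and Cnp in TRAP VP2.2 and TRAP VP2.11. Without Mbp the sums were 2050, 1818, 1891 and 1479 CPM in INPUT and 564, 912, 645 and 605 CPM in TRAP, and the share in TRAP ran from 27.5% in VP1.6 to 50.2% in VP2.2.

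The members split within pool VP2.2. In its INPUT library Mbp, Mog, Mobp and Opalin were higher than in any other INPUT library, while Mag, Cnp and Ugt8a were lower than in any other. In its TRAP library 8 of the 9 members were at their highest, Mag being the exception. As a result the median share kept over the members was 53.0% in VP2.2, against 21.4% in VP1.6, 24.8% in VP2.6 and 28.7% in VP2.11. The difference between TRAP and INPUT was highest in VP2.2 for 5 of the 9 members, a pattern found in 32.3% of all genes tested. Mal (1.59 on the log2 scale above the mean of the other pools), Ugt8a (1.62) and Cldn11 (1.18) were among the 5, and Mbp lay below that mean by 0.45 (log2 difference -0.45). In all, 7 of the 9 members lay above the mean of the other pools in VP2.2, as did 51 of 60 genes of the other oligodendrocyte lists described below and 51.8% of all genes tested. The pattern was not confined to these lists. The difference was highest in VP2.2 for 5 of 7 astrocyte, 4 of 5 precursor and 10 of 16 axonal genes, against 32.3% of all genes. For cholesterol synthesis, microglial, endothelial and pan-neuronal genes the counts were 6 of 12, 2 of 7, 0 of 4 and 1 of 5. Without VP2.2, 8 of 9 members were called lower (14.3% of all genes), Ugt8a being the addition. Across genes, which are not independent replicates, Pearson's r of each INPUT library with the average of the remaining INPUT libraries was 0.974 for VP2.2 and 0.984 to 0.990 for the others. Among the TRAP libraries it was 0.939 for VP2.11 and 0.972 to 0.976 for the others. Mbp, Mog, Mobp and Opalin were at their lowest in TRAP VP2.11, and without that pool 7 of 9 members were called lower (15.7% of all genes).

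**Figure D3:**
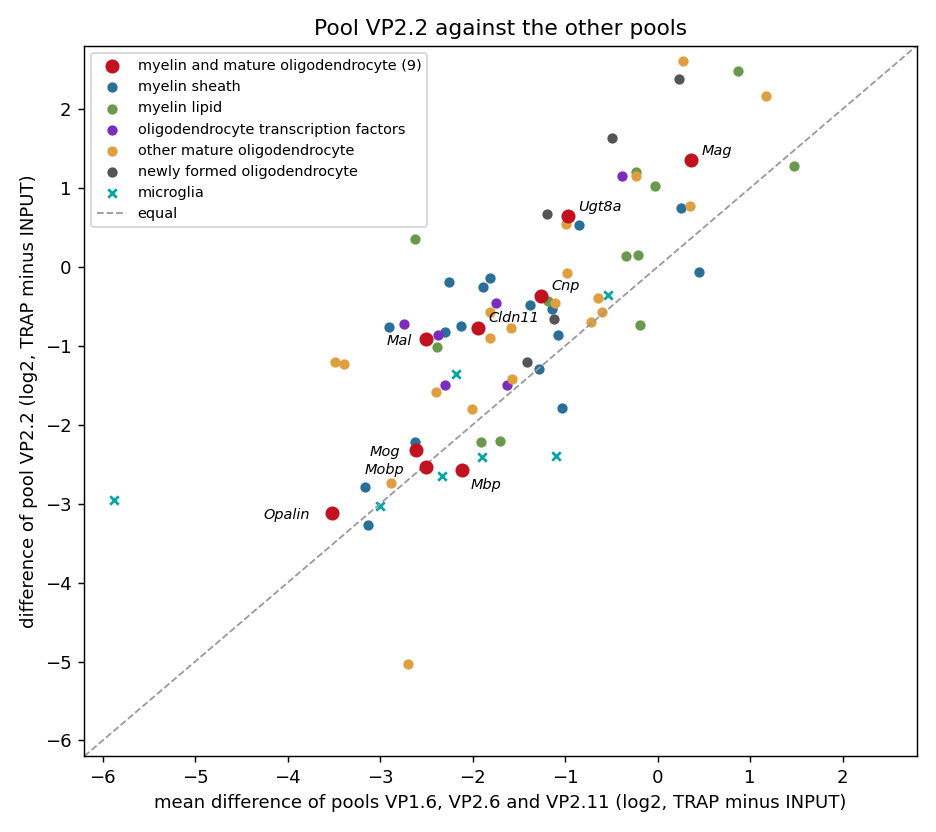
TRAP minus INPUT difference in pool VP2.2 (vertical axis, log2) against the mean difference of the other 3 pools (horizontal axis, log2), 1 point for each gene of 7 lists, with the 9 members in red and named. Of the points of the 5 other oligodendrocyte lists, 51 of 60 lie above the dashed line of equal differences, whereas Mbp, Mog, Mobp and Opalin lie close to it.

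Other genes of the myelin sheath mostly followed the members. Of 17 listed sheath genes tested, 14 fell in TRAP and none rose, where 16.8% of all genes were called lower and 15.4% higher, with a median log2 fold change of -1.39. Cryab and Pllp fell most among them, Cryab being a small heat shock protein (-3.17) and Pllp a proteolipid (-3.07). Sirt2, a deacetylase (-1.22), and Sept4, a septin (-0.99), fell less. Tppp, a tubulin-binding protein (0.38, adjusted p = 0.22), and Omg, an oligodendrocyte glycoprotein that neurons also make (0.32, adjusted p = 0.30), did not pass the test. Hapln2 was not found in the table.

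Of 12 enzymes of myelin lipids tested, 4 fell and 2 rose, where 16.8% of all genes were called lower and 15.4% higher, and 6 did not pass the test, with a median of -0.27. Fa2h, which hydroxylates the fatty acids of galactolipids (-2.05, and -1.44 without VP1.6), Cers2, the ceramide synthase for very long chains (-1.99), Elovl1, which elongates those chains (-1.83), and Aspa, which frees acetate for lipid synthesis (-0.99), fell, though Aspa missed the threshold without VP1.6 (adjusted p = 0.061). Sptlc2, a subunit of the first enzyme of sphingolipid synthesis (1.27, adjusted p = 0.01), and Arsa, the lysosomal sulfatase that degrades sulfatide (1.43, adjusted p = 0.0035), rose. Degs1 (-0.33), Kdsr (-0.22), Sptlc1 (-0.12) and Ugcg (0.13), which serve sphingolipids of all cells, did not pass the test. Gal3st1, which turns the product of Ugt8a into sulfatide, also missed the threshold (-1.88, adjusted p = 0.058), with differences from 0.35 in VP2.2 to -5.14 in VP2.6. It passed without VP2.2 (-2.63, adjusted p = 0.034) and with array weights (-2.82, adjusted p = 0.0018), and was at -0.80 without VP2.6 (adjusted p = 0.38).

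Of 12 cholesterol synthesis genes tested none fell, 4 rose, against 15.4% of all genes, and 8 did not pass the test, with a median of 0.29. Hmgcs1, which makes a precursor of mevalonate (1.22), and Cyp51, a sterol demethylase (0.80), were among those that rose. The count was 2 without VP1.6, a fit that called 10.9% of all genes higher and in which the call of Cyp51 was among those lost (adjusted p = 0.14). Fdft1 (0.16), Fdps (0.28), Msmo1 (0.03) and Idi1 (-0.01) did not pass the test. These enzymes are used by neurons and glia alike.

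Transcription factors of the oligodendrocyte lineage fell in 5 of the 6 cases tested, with a median of -1.80, where 16.8% of all genes were called lower. Sox10, a lineage factor (-1.60), Myrf, which drives myelin genes (-1.43), Olig1 (-2.10), Olig2 (-2.24) and Zfp488 (adjusted p = 0.017) were lower, and St18 did not pass the test (-0.00072, limma adjusted p = 1). Without VP2.6 Zfp488 missed the threshold (-1.42, adjusted p = 0.12), which left 4 genes lower, against 12.1% of all genes. Nkx6-2 was not found in the table. Summed over the 6 genes, TRAP held 40.7% ± 16.3 of the INPUT level (SD, n = 4 pools), with the highest share, 59.5%, in VP2.2.

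Among 20 further markers of mature oligodendrocytes, 11 fell, against 16.8% of all genes, and 1 rose, a share below the 15.4% of all genes, with a median of -1.17. Car2, a carbonic anhydrase (-1.58), Apod, a lipid carrier (-2.84), Plekhb1 (-1.96), Tmem88b (-2.92) and Ninj2, an adhesion protein (-3.28, and -2.51 with a trend on exon length removed), were lower. Enpp2, which encodes the lysophospholipase autotaxin, rose in TRAP, from 200.0 CPM in INPUT to 520 CPM (1.42, limma adjusted p = 0.00084), in 4 of 4 pools. Without VP1.6 a second gene of this list, the protease Adamts4, was called higher (1.22, adjusted p = 0.03). With all pools Adamts4 did not pass the test (0.86, adjusted p = 0.087), and without VP2.2 its change was smaller (0.27, adjusted p = 0.45). Dock5 (0.11) and Carns1 (0.46) did not pass the test. Markers of newly formed oligodendrocytes had a median of -0.73, and 2 of 5 fell, where 16.8% of all genes were called lower. These were Bcas1 (-1.36) and Gpr17, a receptor of cells about to myelinate (-1.01), the latter not without VP1.6 (adjusted p = 0.056) or VP2.6 (adjusted p = 0.091), which leaves 1 gene in either case, where 11.7% and 12.1% of all genes were called lower. Enpp6 (-0.73) and Tns3 (0.04) did not pass the test, Enpp6 doing so without VP2.2 (-1.20, adjusted p = 0.047), and all 5 genes had their highest difference in VP2.2.

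**Figure D4:**
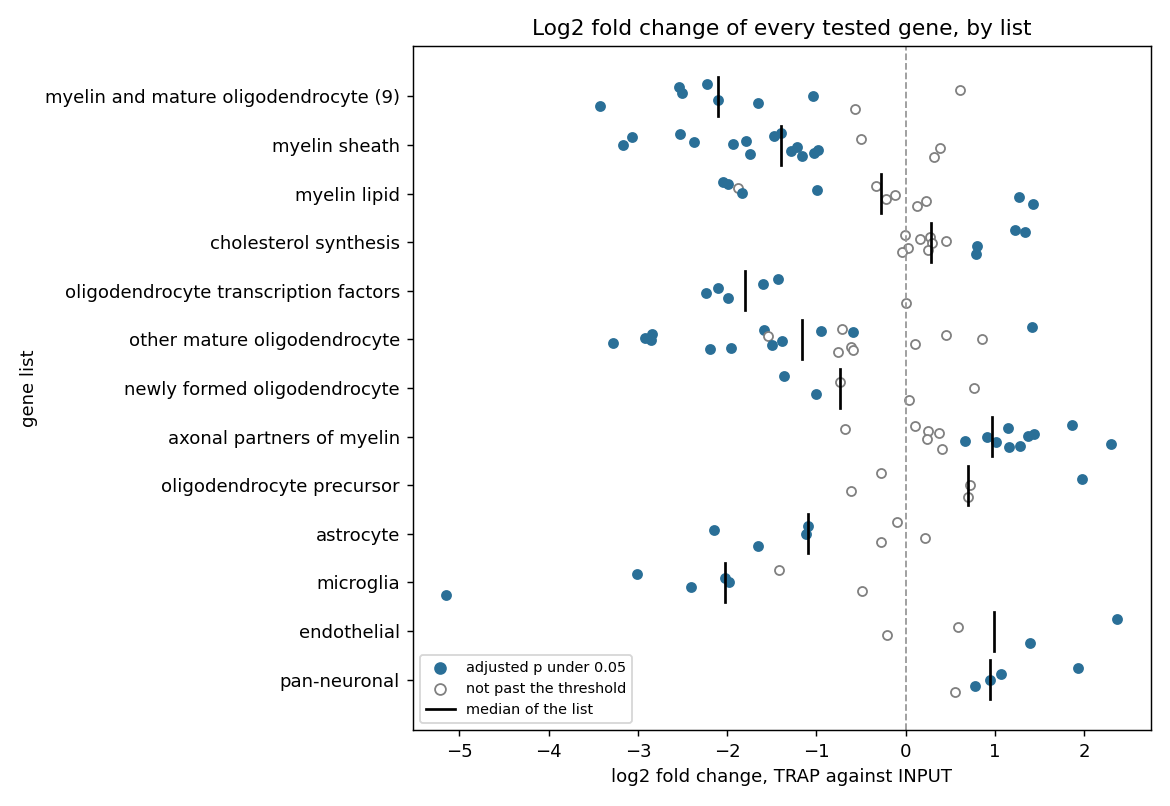
Log2 fold change of TRAP against INPUT (horizontal axis) for every tested gene of each list (rows), filled where the limma adjusted p with the pool as a block was under 0.05, with a bar at the median of the list. Medians lie at -2.11 for the 9 members, -1.39 for other sheath genes and -1.80 for the transcription factors, and at 0.96 for the axonal partners.

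Genes that axons use to meet myelin were on the other side. Of 16 tested, 10 rose and none fell, where 15.4% of all genes were called higher and 16.8% lower, with a median of 0.96. L1cam, an adhesion molecule of axons (2.30), Rtn4r, the Nogo receptor, which also binds Mag (1.87), Cntn1, a paranodal contactin (1.43), Cntn2 (1.37), Nrcam (1.28) and Nfasc, adhesion proteins of the node (1.16), Lingo1, a partner of the Nogo receptor (1.15), Cadm3 (1.01), Cntnap1, the contactin-associated protein of the paranode (0.92), and Cadm2 (0.66) were higher. The calls of Cadm2 and Rtn4r were lost without VP2.2 (adjusted p of 0.10 and 0.096), that of Rtn4r also without VP2.11 (0.059), and those of Cntnap1 without VP2.11 (0.11) and of Cadm3 without VP2.6 (0.099). Cadm2 also missed the threshold with any other pool left out. Cntnap2 (0.24), Ank3 (0.41) and Rtn4rl1 (0.10) did not pass the test, and Cntnap2 and Ank3 turned negative when a trend on exon length was removed (-0.27 and -0.61). That removal left 7 of the 16 called higher, against 13.8% of all genes, and 2 lower, a share no larger than the 18.0% of all genes. It ended the calls of Cadm2 (0.17, adjusted p = 0.52), Cntnap1 (0.67, adjusted p = 0.057) and Cadm3 (0.66, adjusted p = 0.064), and Nrcam (0.64) and Nfasc (0.50) stayed past the threshold with smaller changes. Rtn4rl2 was not found in the table.

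Microglial markers were lower for 5 of 7 genes, against 16.8% of all genes, with a median of -2.03, among them C1qb (-3.01, and -2.32 with the length trend removed), P2ry12 (-2.41), Cx3cr1 (-1.97) and Tmem119, while C1qa (-1.42) and Csf1r (-0.49) did not pass the test, though C1qa did without VP2.11 (adjusted p = 0.018) and both did without the block (adjusted p = 0.022 for each), a fit that called 24.8% of all genes lower. Tmem119 was at 0.028 to 0.43 CPM in TRAP, near the floor, and at 3.36 to 4.62 CPM in INPUT, so the size of its fold change (-5.15, and -5.88 to -4.41 with 1 pool left out) is uncertain. Their summed level in TRAP was 26.0% ± 7.56 of that in INPUT (SD, n = 4 pools), and was 25.5% in VP2.2. Astrocyte markers were lower for 4 of 7 genes, against 16.8% of all genes, with a median of -1.10, namely Gja1, a connexin (-2.14), Gfap (-1.65), Slc1a3, a glutamate transporter (-1.12), and Aqp4 (-1.10). Aldoc (-0.09) and Slc1a2 (0.21) did not pass the test, and since Aldoc carried most of the astrocyte sum, TRAP held 85.1% ± 15.2 of it. For oligodendrocyte precursors 1 of 5 genes was called higher, a share near that of all genes (15.4%). It was the proteoglycan Cspg4 (1.98, and 1.39 with the length trend removed), while Ptprz1 (0.70), Vcan (0.72), Pdgfra (-0.28, and -0.88 without VP2.2) and C1ql1 (-0.61) did not pass the test. Ptprz1 also passed without VP1.6 (1.06, adjusted p = 0.022). Their share of the INPUT sum ran from 76.5% in VP1.6 to 341% in VP2.2.

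Endothelial markers moved with the pool. Of 4 tested, 2 were called higher, against 15.4% of all genes. Flt1 (2.37, and 1.73 with the length trend removed) and Slco1a4, at 10.8 CPM in TRAP and 3.58 CPM in INPUT, were the genes called, the latter not without VP1.6 (adjusted p = 0.18) or VP2.11 (adjusted p = 0.21), whereas Pecam1 (0.59, and 0.037 to 1.28 with 1 pool left out) and Ly6c1 (-0.21, and -1.16 to 1.52) did not pass the test. Their summed level was 46.8 CPM in INPUT VP2.2 and 5.06 to 14.8 CPM in the other INPUT libraries. Ly6c1 made 35.9 CPM of the 46.8, and Flt1 was lower there than in INPUT VP2.6 (2.00 against 2.28 CPM). Among the TRAP libraries the sum was highest in VP2.11, at 74.5 CPM against 11.1 to 29.3 CPM. The part of either library in the values of the members was not tested. Of the pan-neuronal markers 4 of 5 rose, against 15.4% of all genes, with a median of 0.95: Snap25, a synaptic fusion protein (1.93), Syt1 (1.07), Tubb3 (0.95) and Stmn2 (0.78). Without VP1.6 or VP2.6 the count was 2, where 10.9% and 10.7% of all genes were called higher, since Tubb3 and Stmn2 were lost in both, Stmn2 was also lost without VP2.11 (adjusted p = 0.064), and Rbfox3 passed the test only without VP2.2 among the pools left out (0.83, adjusted p = 0.0048, against 0.55 with all pools). The Schwann cell genes Prx, Pmp2 and Dhh, markers of myelin outside the brain, were not found in the table.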

How the data were processed

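The 9 genes, the other gene lists and the tests were chosen with earlier results of these data known. The authors aligned reads with STAR 2.5.1a, counted unique reads per gene, scaled libraries by TMM in edgeR and deposited log2 CPM per gene in every library. The table also holds the authors' own fold changes, limits, statistics, p-values and a transcript count, none of which was used. Of 14398 entries, 45 repeats with identical values were left out. INPUT VP1.6, INPUT VP2.11 and TRAP VP2.11 were rounded to 3 significant digits. Total counts were not analysed here and depth was not estimated.

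Genes above 1 CPM in at least 3 libraries (14249) were fitted with limma 3.58.1 in R 4.3.3 (lmFit, eBayes with a trend), with the pool as a block. The labels give both fractions of a pool 1 name, and both were drawn from 1 homogenate. Deviations of same-pool libraries from their fraction means correlated at -0.49 to -0.75 across genes, against 0.05 to 0.44 for different pools. Genes high in the TRAP library of a pool thus tended to be low in its INPUT library. These negative values are no ground for the block, which rests on the labels and the shared homogenate. With the block 4592 genes were called, and without it 6830. The fit was also run on simulated data, in which genes were independent and their variances followed the prior of the fit itself. That run cannot show how the fit handles a shift that many genes of a pool share. Each fraction has 1 library per pool, so the replicates are 4 pools. The limma standard errors and p-values do not rest on the spread of a gene between these pools alone. In eBayes the variance of each gene is drawn toward a trend over all genes tested, and the standard errors given are the moderated ones.

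The text names all 9 members and, of each list, the 4 genes highest in INPUT, the 2 with the largest and the 2 with the smallest absolute log2 fold change and every gene called higher, beside the 10 other genes nearest in profile. A few further genes (Elovl1, Gal3st1, Adamts4, Zfp488, Aqp4, Dnajc7, Slc17a6) were named after their values were seen, and some genes the rule names are not reported here. Positions and exon lengths came from GENCODE M21 (GRCm38). Alternatives left out each pool, the block, the filter or the trend, weighted the libraries, added 1 CPM before log2, scaled by the median or by quantiles, and removed a trend on exon length (loess span 0.75).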

Additional observations from a re-analysis of the deposited data

Results flagged for a closer look

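The level of Mbp in TRAP VP2.11 was 7.87 on the log2 scale, whereas the other 3 TRAP libraries lay between 8.47 and 8.59. Its gap to the nearest of them was 0.830 of the range of the group, just past the 95% limit of Dixon's test for 4 values. For the 9 members, 27 groups of 4 values were examined (TRAP levels, INPUT levels and differences), of which 1 was marked, while chance marks about 1.35.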

How the results depend on the processing

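All 9 members kept the direction of their log2 fold change under every alternative. The count called lower was 7 with the full data, 6 to 8 with 1 pool left out, 8 with quality weights, 8 without both the block and VP2.2 (an alternative added after the data were seen) and 7 in the others. Without the pool as a block, 1 member, Mag, was called higher (adjusted p = 0.035), against none in the blocked fit, and 6830 genes were called in place of 4592. With 1 pool left out 3232 to 4156 genes were called. Over all these settings 11.7% to 24.8% of all genes were called lower and 10.4% to 23.2% higher. The members' departures were recomputed in only some of these settings, and stayed within 1 SD in each of those. For the lists, the counts that moved by more than 1.5 times are given beside them above for single pools. Without a trend in eBayes 2 cholesterol genes and 1 endothelial gene were called higher, and with a trend on exon length removed 2 axonal genes were called lower and 1 sheath gene and 1 endothelial gene higher. With quality weights, and without both the block and VP2.2, 1 sheath gene was called higher. Without both the block and VP2.2 the precursor gene Pdgfra was called lower (-0.88, limma adjusted p = 0.023), where 21.6% of all genes were. Without the block 1 endothelial gene was called higher.

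Among named genes past the threshold, values that moved by more than 1.5 times and are not given above were those of Rtn4r (1.13 with 1 CPM added, 2.87 after quantile normalization), Flt1 (1.73) and Ninj2 (-2.39) with 1 CPM added, Snap25 after quantile normalization (1.10), and Tmem119 (-6.00 with quality weights, -2.06 with 1 CPM added, -3.82 after quantile normalization), and, among the genes of near profile, Kmt2d (-2.58 with the length trend removed) and Adap2 (-1.04 with 1 CPM added, and -1.12 after quantile normalization, adjusted p = 0.12). Among the named genes, 16 that did not pass the test changed sign in some setting. With quality weights the log2 fold changes of those that did were 0.11 for Aldoc, -0.020 for Carns1, -0.092 for Dock5, 0.47 for Ly6c1, -0.0071 for Slc1a2, -0.30 for Tns3 and -0.22 for Ugcg. With the length trend removed they were -0.61 for Ank3, -0.27 for Cntnap2, -0.49 for Dock5, 0.030 for Idi1, 0.24 for Ly6c1, -0.24 for Msmo1, -0.42 for Slc1a2, -0.52 for Tns3 and -0.050 for Ugcg. Quantile normalization gave 0.20 for C1ql1, 0.061 for Ly6c1, -0.10 for Msmo1 and 0.11 for St18, median scaling 0.028 for Idi1 and 0.033 for St18, and 1 CPM added gave 0.0031 for St18. Without both the block and VP2.2 they were 0.011 for Aldoc, -0.24 for Dock5, 1.52 for Ly6c1, -0.13 for Slc1a2, -0.49 for Tns3 and -0.23 for Ugcg. With 1 pool left out the values ran from -0.23 to 0.46 for Ugcg, -0.084 to 0.52 for Fdft1, -0.12 to 0.23 for Msmo1, -0.28 to 0.27 for Idi1, -0.38 to 0.25 for St18, -0.24 to 0.29 for Dock5, -0.49 to 0.25 for Tns3, -0.078 to 0.16 for Rtn4rl1, -0.88 to 0.092 for Pdgfra, -0.28 to 0.041 for Aldoc, -0.13 to 0.39 for Slc1a2 and -1.16 to 1.52 for Ly6c1. The cause of these changes was not tested. Depth was not estimated, so counting error could not be separated from the spread between pools.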

Other observations

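Outside the lists, the 10 genes whose profile over the 8 libraries lay nearest to the median profile of the members included Kmt2d, Lhx6, Vamp3, Gng12, Slc10a4, Adap2, Cdc42ep1, Sp8 and C330011M18Rik, each centred on its own mean. The root mean square difference was 0.12 on the log2 scale for Kmt2d, a histone methyltransferase, and 0.16 for Lhx6, a transcription factor of GABAergic neurons, and reached 0.19 for the last gene of the 10. By the same measure Cldn11 was nearest among the members (0.11) and Mag farthest (1.24). Kmt2d had 150 CPM in INPUT and 44.8 CPM in TRAP (log2 fold change -1.78, limma adjusted p = 7.1e-05) and Lhx6 68.7 and 22.1 CPM (-1.72). With 8 values and 14249 genes to choose from, a near profile is a description. Adap2 missed the threshold when VP1.6, VP2.2 or VP2.6 was left out, Cdc42ep1 when VP1.6 was, and C330011M18Rik did not pass it (-1.78, limma adjusted p = 0.09).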
